A study of Aix galericulata with 8 samples.

Results

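TSHR, DIO2, AVPR1A, TACR3 and VIPR1 are 5 genes of thyroid and neuropeptide hormone signaling, and each had 1 gene model among the 784 of the epithelium table from growing sail feathers of the male Mandarin duck (Aix galericulata). Among the 80 gene models of the pulp table, 0 carried one of these symbols. The members were chosen by symbol from tables that had themselves been selected on measured values, since each table lists the gene models that the authors picked from their comparison of the medial brown with the lateral blue vane of a tissue. Presence in the epithelium table is therefore part of how the genes were chosen and is not a result here. The name "hormone receptors" holds for TSHR, AVPR1A, TACR3 and VIPR1, whereas DIO2 is an enzyme.

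The sail feather is the enlarged, asymmetric secondary remex that drakes carry in the breeding season. RNA was sequenced from 8 libraries of wild-type, untreated males in breeding season, taken during early regrowth after plucking. Epithelium, the keratinocyte layer, and pulp, the mesenchyme inside it, were each dissected from the medial brown and from the lateral blue vane, which gives 4 groups of 2 libraries. The feathers came from 2 males, so libraries of different groups share birds, and which bird each library came from is not given. The labels name the sail feather alone, although flight feathers beside it were plucked as well, and whether any entered these libraries is not settled. The level is edgeR's logCPM, the log2 of an average CPM (read counts scaled to the size of the library) over the libraries compared. It is not a mean of log2 values per library, so a library with a high CPM can raise it more than such a mean. The tables give 1 such level for each gene model and 0 columns with a value per library. Library depth and replicate spread are therefore unknown, and no error can be given for any level below. A level in the medial brown vane alone, or in the lateral blue vane alone, cannot be read from such a mean. The CPM values below are this log2 level turned back, and edgeR's average need not equal a plain mean of CPM over the libraries. Fold changes and p-values of the authors' comparison were not used, so no direction is given for any gene.

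Thyroid-stimulating hormone from the pituitary binds TSHR, a receptor that raises cyclic AMP. DIO2 removes an iodine from thyroxine and so makes triiodothyronine, the form that binds nuclear thyroid hormone receptors with high affinity. In the hypothalamus of the Japanese quail, thyroid-stimulating hormone acts on its receptor and induces DIO2 when days lengthen, and in birds thyroid hormone is known for its part in molt. AVPR1A belongs to the receptors of the vasopressin family, whose avian hormone is vasotocin, and TACR3 is the receptor preferred by neurokinin B. Both act mainly through the G protein Gq and calcium. VIPR1 binds vasoactive intestinal peptide, which in birds releases prolactin from the pituitary, and acts mainly through cyclic AMP.

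Among the members of the thyroid axis, TSHR (Mandarin_01276900) took a mean share of 35.3 CPM in the epithelium libraries (5.14 on the log2 scale). Of the table's gene models 57.9% had a lower mean than TSHR, which lay 0.30 above the table's median of 4.84 on the log2 scale. DIO2 (Mandarin_00567300) had a mean of 4.18 CPM (2.07 on the log2 scale), and 11.6% of the gene models had a lower one. Both are shares of reads, which also grow with the length of a transcript. No lengths were at hand, so these values do not order the genes by their number of transcripts.

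Of the neuropeptide receptors, TACR3 (Mandarin_01176000) had a mean of 13.5 CPM (3.75 on the log2 scale), with 28.6% of the table's gene models below it. VIPR1 (Mandarin_00661100) had 3.23 CPM (1.69 on the log2 scale). AVPR1A (Mandarin_01297500) had 2.35 CPM (1.23 on the log2 scale). Of the table's gene models, 8.93% had a lower mean than VIPR1 and 4.85% a lower mean than AVPR1A. DIO2, VIPR1 and AVPR1A thus lay among the 25% of the table's gene models with the lowest means, below 3.50 on the log2 scale. TACR3 lay between that and the table's median. The 5 means covered 2.35 to 35.3 CPM with a median of 4.18 CPM, against a median of 28.7 CPM and a range of 0.748 to 5013 CPM over all 784 gene models. How many reads per library stand behind the low means is unknown.

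**Figure D1:**
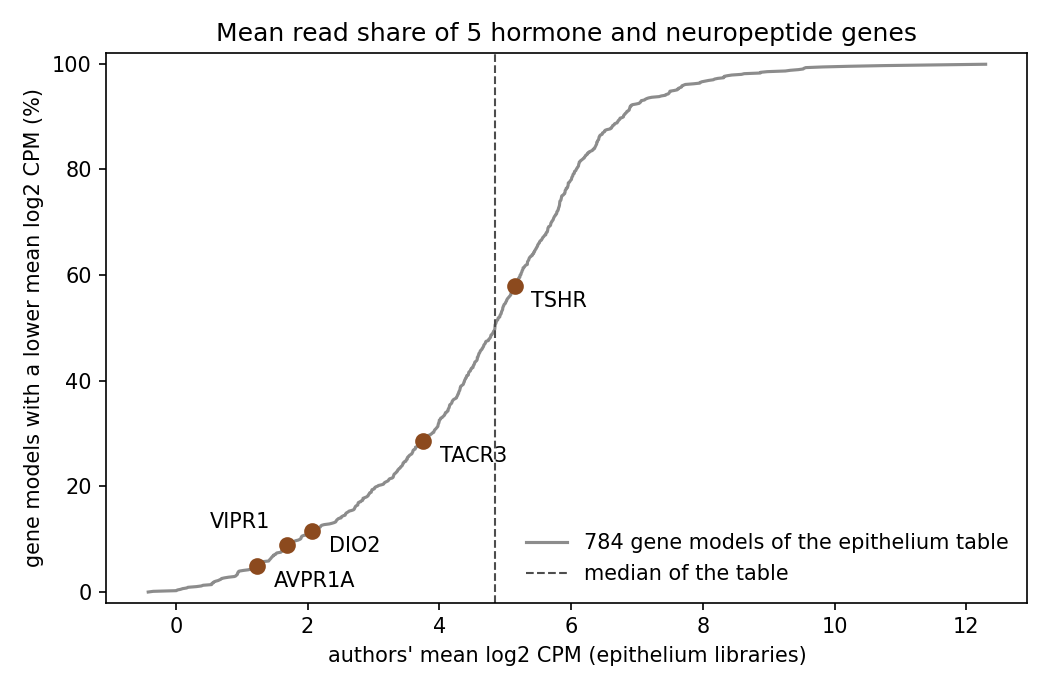
Log2 of average CPM in the epithelium libraries (x axis) against the percentage of the 784 gene models with a lower value (y axis). The line is the whole table, the points are the 5 genes and the dashed line is the table's median of 4.84. TSHR lies above the median at 5.14, and the other 4 genes lie below it, down to 1.23 for AVPR1A; no error bars are drawn because the table holds no value per library.

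Other genes of the same pathways were looked up by symbol in both tables. How many genes were measured in all is not known here, so the share of all genes that were listed is missing and the counts below, those of marker genes included, cannot be read as many or few. Of 32 symbols of the thyroid hormone axis, the epithelium table held 2, TSHR and DIO2 themselves, while 0 were in the pulp table. The nuclear receptors THRA and THRB, the deiodinases DIO1 and DIO3 and the hormone subunits TSHB and CGA were among the 30 symbols without a listed gene model in the epithelium. Of 47 symbols of neuropeptide receptors and ligands, the epithelium table held 3, all of them members. The pulp table held 1, POMC, the precursor of melanocyte-stimulating hormone, at 81.8 CPM (6.35 on the log2 scale). The ligand genes AVP, TAC1, TAC3 and VIP and the sister receptors AVPR1B, OXTR, TACR1, TACR2 and VIPR2 had no listed gene model in either table. A symbol that is not listed was not among the gene models the authors picked, which does not show that it was silent or equal in the vanes. No symbol was given for 214 epithelial and 23 pulp gene models, so a gene can also be listed without its name.

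Downstream of the receptors, 2 of 36 cyclic AMP effectors were listed in the epithelium. These were AKAP12 at 114 CPM and AKAP9 at 91.1 CPM, anchoring proteins that hold protein kinase A at sites in the cell. Of 36 effectors of Gq and calcium, 3 were listed there. CAMK2D, a calcium and calmodulin dependent kinase, had a mean of 18.3 CPM. RGS5, which speeds the shut-off of G proteins and also marks pericytes, had 5.69 CPM, and ATP2B1, which pumps calcium out of the cell, had 5.29 CPM. Of 14 symbols for receptor desensitisation and accessory proteins, 3 were listed in the epithelium. RAMP2, a partner of class B receptors such as the calcitonin receptor-like receptor, had 37.8 CPM, USP33, a deubiquitinase, 32.5 CPM, and NEDD4, a ubiquitin ligase, 30.2 CPM. The G protein genes GNAS, GNAQ and GNA11 were listed in neither table. The pulp table held 0 symbols of each of these effector lists. Of 9 steroid and retinoid receptors, among them ESR1 and RARA, 0 were listed in either tissue.

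**Figure D2:**
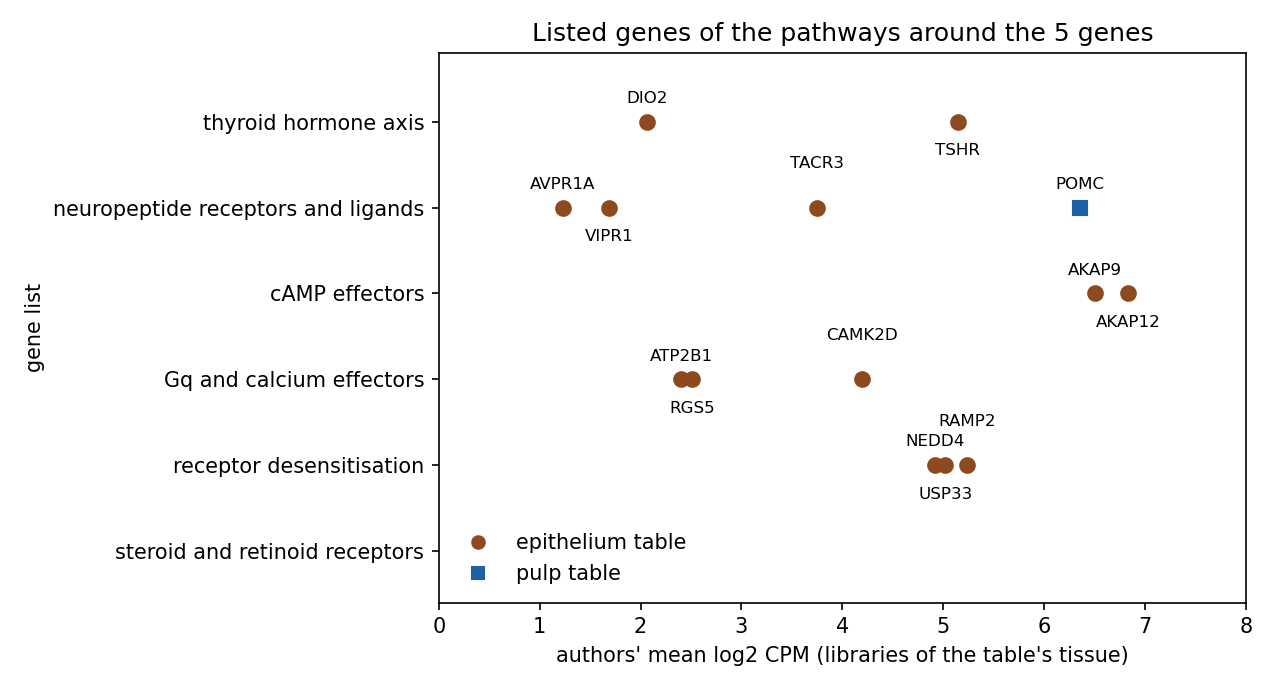
Log2 of average CPM (x axis) of every gene of the 6 pathway lists (rows) with a gene model in either table. Circles mark the epithelium table and the square marks the pulp table, with 1 point per gene model. The thyroid and neuropeptide rows hold the 5 members, from 1.23 for AVPR1A to 5.14 for TSHR, and POMC of the pulp at 6.35; the row of steroid and retinoid receptors is empty.

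Markers of other cell types were also looked up in both tables, with lists chosen after earlier results of these data were known. The epithelium table is given first. Of 12 endothelial markers 3 were listed there, ENG at 50.0 CPM, SHE at 17.0 CPM and TEK at 9.48 CPM. Of 10 markers of pericytes and smooth muscle 2 were listed, TAGLN at 14.0 CPM and RGS5. Of 7 skeletal muscle markers 2 were listed, TNNC1 at 32.7 CPM and MYOZ2 at 10.6 CPM. The table listed 1 of 9 fibroblast markers, 1 of 9 neural and Schwann cell markers, 0 of 9 melanocyte markers and 0 of 6 immune markers. In the pulp table, 2 of the 10 pericyte and smooth muscle markers were listed, ACTG2 at 487 CPM and MYH11 at 225 CPM. It also held NEFL, a neural marker, at 216 CPM and MLANA, a melanocyte marker, at 48.4 CPM. The part of other cell types in the listing of the 5 members was not tested. Of 12 keratinocyte markers 0 were listed, and since unlisted genes have no value, the labelled tissue could not be checked against its markers. In bulk tissue, fewer cells of a type and less RNA per cell cannot be told apart.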

How the data were processed

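Total RNA from dissected epithelium and pulp of growing sail feathers was made into poly(A) libraries and sequenced as single reads by the authors. Alignment with STAR 2.4.1d, counting with HTSeq 0.6.0 and edgeR are named in the submitters' processing notes, and TMM normalization in the paper's methods. A Mandarin duck reference genome is named in the paper; its assembly version is not given in the sources used here. The authors deposited 2 tables, 1 per tissue, with a log2 level (logCPM, edgeR's mean, taken here as that over the 4 libraries of the tissue, which the tables do not state) for each gene model they picked. The same tables hold the authors' fold changes, P and FDR of medial brown against lateral blue, which were not used. Whether the selection of gene models fits those columns was not examined. No column holds a value per library, so the depth is unknown and no test was run.

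With Python 3.11.15, pandas 2.3.3, numpy 2.4.6 and matplotlib 3.10.9, gene models were matched by exact symbol, mean CPM was computed as 2 to the power of logCPM, and the percentage of gene models in the table with a lower value was counted. The 6 gene lists and 8 marker lists, and the 5 members, were chosen with earlier results of these data known. Named genes are the members and every listed symbol of the pathway lists, at most 6 per list; some genes of these pathways are not reported here. The marker genes are named outside that rule and were likewise chosen after their values were seen. The labels number the libraries of a group as replicates, and the paper's methods call them biological replicates. Which male and which sequencer each belongs to is not given in the sources used here. A planned level per kilobase was not computed because no lengths were at hand.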

Additional observations from a re-analysis of the deposited data

How the results depend on the processing

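The 5 members had 5 gene models in the epithelium and 0 in the pulp table, also when the case of a symbol and a copy suffix were ignored. Counting the percentage of gene models below each member over those with a symbol, or over 1 gene model per symbol, gave 10 values, the largest shift being 3.12 percentage points. Counting gene models in place of symbols left all 12 counts of the gene lists as they were. The linear CPM was computed from the log2 level, so these scales could not differ and their comparison tests nothing. The level per kilobase was not run, since no lengths were at hand. No paired analysis was possible because the tables hold no value per library, and for the same reason no replicate could be left out. Low means, such as that of AVPR1A, may rest on few reads, and how few is unknown.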
